A study of Mus musculus with 22 samples.

Results

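Chromatin accessibility around the basement membrane collagen genes Col4a1 and Col4a2 and the signalling gene Arhgef7 was described from ATAC-seq peaks of mouse retinal endothelial cells. In ATAC-seq a transposase, Tn5, inserts sequencing adapters into open DNA, and a peak, here called a region, is a stretch with many cuts. The regions are those with a midpoint on chromosome 8 between 11 and 12 Mb (mm9 coordinates), 91 of the 49558 placed regions of the gTKO list and 159 of the 57267 placed regions of the control list. This megabase was selected on its number of control regions without a gTKO partner, so that number and every measure from the same 2 lists are given as a description, with no test. Inside it, a collagen sub-window from 11.15 to 11.50 Mb and an Arhgef7 sub-window from 11.70 to 11.87 Mb were set by the approximate places of the genes, and the remainder is called the rest of the megabase.

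The gTKO pups were S1pr3-/- with floxed alleles of S1pr1 and S1pr2 (S1pr1flox/flox S1pr2flox/flox) and carried Rosa26-CreERT2, a tamoxifen-dependent recombinase. The control pups had the same S1pr3-/-, S1pr1flox/flox and S1pr2flox/flox alleles and no recombinase, so both genotypes lacked S1pr3. These genes encode receptors for the lipid sphingosine 1-phosphate. All pups had a C57BL/6 background and were injected with 100 µg tamoxifen between postnatal days 1 and 3. Endothelial cells were sorted at postnatal day 6, although the labels' cell type entry calls them adult. The Rosa26 locus is active in most cell types, so recombination is not restricted to endothelium in this model. Each of the 3 gTKO and 3 control libraries was made from 5000 to 8000 sorted cells of pooled retinas, from 4 to 6 pups per pool. Each genotype is represented by a single list of positions, to which all 3 of its libraries point, so no value below has a replicate error. The lists hold no gene names, and with no mm9 annotation used here the labelled cell type was not checked against marker genes. They also carry no signal values or read depth.

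Type IV collagen is the main structural collagen of basement membranes, the sheets of matrix on which endothelial cells sit. Col4a1 and Col4a2 encode the chains of its most widespread form, lie head to head and are transcribed away from each other from a shared promoter, and mutations in either cause small vessel disease with haemorrhage. Arhgef7 encodes beta-Pix, a guanine nucleotide exchange factor for the small GTPases Rac1 and Cdc42 that binds PAK kinases and GIT proteins at focal adhesions, and in zebrafish its loss leads to bleeding in the brain. In the RefSeq annotation of GRCm38.p6 the protein-coding genes follow each other in the order Irs2 (an insulin signalling adaptor), Col4a1, Col4a2, Rab20 (a small GTPase), Naxd (a repair enzyme for damaged NADH), Cars2 (the mitochondrial cysteinyl-tRNA synthetase), Ing1 (a chromatin reader), Ankrd10, 1700016D06Rik, Arhgef7 and Tex29. The lists are in mm9 and no position was converted between builds, so no region is assigned to a gene, an exon, an intron or a start site here. Below, "at Arhgef7" and "at the collagen genes" name the sub-windows and not the genes. Whether the Arhgef7 sub-window reaches past the gene towards Tex29 was not checked.

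The promoter sequences of the 3 genes that name the megabase are shown because the collagen pair shares a promoter and Arhgef7 has several starts. They are from RefSeq (GRCm38.p6), 250 bases before to 50 after each start, written 5′ to 3′ on the gene's strand. Col4a1 is at chr8:11312777-11313076 on the minus strand and Col4a2 at chr8:11312555-11312854 on the plus strand. Capitals mark the 78 bases that these windows share, read from opposite strands.
Col4a1 promoter: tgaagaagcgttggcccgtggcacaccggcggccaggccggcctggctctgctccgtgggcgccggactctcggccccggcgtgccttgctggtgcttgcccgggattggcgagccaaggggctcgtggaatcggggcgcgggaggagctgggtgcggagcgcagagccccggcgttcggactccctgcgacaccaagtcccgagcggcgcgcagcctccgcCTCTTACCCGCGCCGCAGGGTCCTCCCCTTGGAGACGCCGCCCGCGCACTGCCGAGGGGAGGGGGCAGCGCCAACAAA
Col4a2 promoter: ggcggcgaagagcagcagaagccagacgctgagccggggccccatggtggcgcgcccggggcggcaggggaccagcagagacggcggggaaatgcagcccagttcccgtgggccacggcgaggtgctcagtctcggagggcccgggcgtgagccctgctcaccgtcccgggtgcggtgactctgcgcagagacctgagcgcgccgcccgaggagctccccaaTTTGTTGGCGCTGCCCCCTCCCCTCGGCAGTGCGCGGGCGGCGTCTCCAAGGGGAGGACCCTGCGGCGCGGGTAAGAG

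For Arhgef7 the table holds 3 starts on the plus strand, at chr8:11727808-11728107, chr8:11758115-11758414 and chr8:11779034-11779333. Capitals mark the cyclic AMP response element TGACGTCA in the last of them.
Arhgef7 promoter, start 1: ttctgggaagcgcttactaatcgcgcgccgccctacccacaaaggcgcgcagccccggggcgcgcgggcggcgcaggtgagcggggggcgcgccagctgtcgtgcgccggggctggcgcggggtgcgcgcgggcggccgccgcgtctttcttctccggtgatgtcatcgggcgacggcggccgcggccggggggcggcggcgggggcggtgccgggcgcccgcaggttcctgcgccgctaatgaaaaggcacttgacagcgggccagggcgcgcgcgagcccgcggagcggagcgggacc
Arhgef7 promoter, start 2: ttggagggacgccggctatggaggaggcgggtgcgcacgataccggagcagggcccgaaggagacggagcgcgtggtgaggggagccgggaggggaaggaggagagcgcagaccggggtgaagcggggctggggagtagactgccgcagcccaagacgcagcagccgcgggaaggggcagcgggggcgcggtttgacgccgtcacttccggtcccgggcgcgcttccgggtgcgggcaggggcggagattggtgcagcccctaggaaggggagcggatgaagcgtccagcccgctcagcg
Arhgef7 promoter, start 3: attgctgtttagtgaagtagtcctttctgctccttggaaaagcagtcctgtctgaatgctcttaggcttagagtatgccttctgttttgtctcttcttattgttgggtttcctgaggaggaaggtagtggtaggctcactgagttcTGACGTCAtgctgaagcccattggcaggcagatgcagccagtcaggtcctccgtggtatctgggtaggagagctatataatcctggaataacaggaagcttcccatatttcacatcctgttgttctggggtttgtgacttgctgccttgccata

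Base composition sets the last Arhgef7 start apart from the other 4 windows. It had 47.3% G and C and 2 CG dinucleotides. The Col4a1 and Col4a2 windows had 74.0% and 73.7% G and C with 37 and 33 CG dinucleotides, and Arhgef7 starts 1 and 2 had 78.3% and 72.3% with 54 and 34. The median over all 32851 RefSeq promoters was 52.7% and 7 CG dinucleotides. The AP-1 motif TGANTCA, searched because AP-1 factors are named in the title of the study, was in none of these 5 windows and in 7.81% of all promoters. TGACGTCA, which reads the same on both strands and does not contain TGANTCA, was in 1.79% of all promoters. These matches describe letters, and no promoter window was matched to a region of the lists.

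Most of the difference between the lists in this megabase, in number of regions and in covered sequence, lay in the Arhgef7 sub-window. It held 66 of the 68 regions and 24405 of the 29537 bp by which the control list exceeded the gTKO list. The gTKO list held 8 regions there, covering 4083 bp, and the control list 74 regions, covering 28488 bp. In the collagen sub-window the lists were nearly equal, with 72 gTKO regions covering 32372 bp and 73 control regions covering 36321 bp. The rest of the megabase held 11 gTKO regions covering 9184 bp and 12 control regions covering 10367 bp. In covered sequence the gTKO list thus reached 0.143 of the control list at Arhgef7, 0.891 at the collagen genes and 0.886 in the rest. Over all placed chromosomes this ratio was 0.771, so the collagen sub-window lay above it and the Arhgef7 sub-window below it. The collagen sub-window held 79.1% of the gTKO regions of the megabase and 45.9% of its control regions, and the Arhgef7 sub-window 8.79% and 46.5%.

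**Figure D1:**
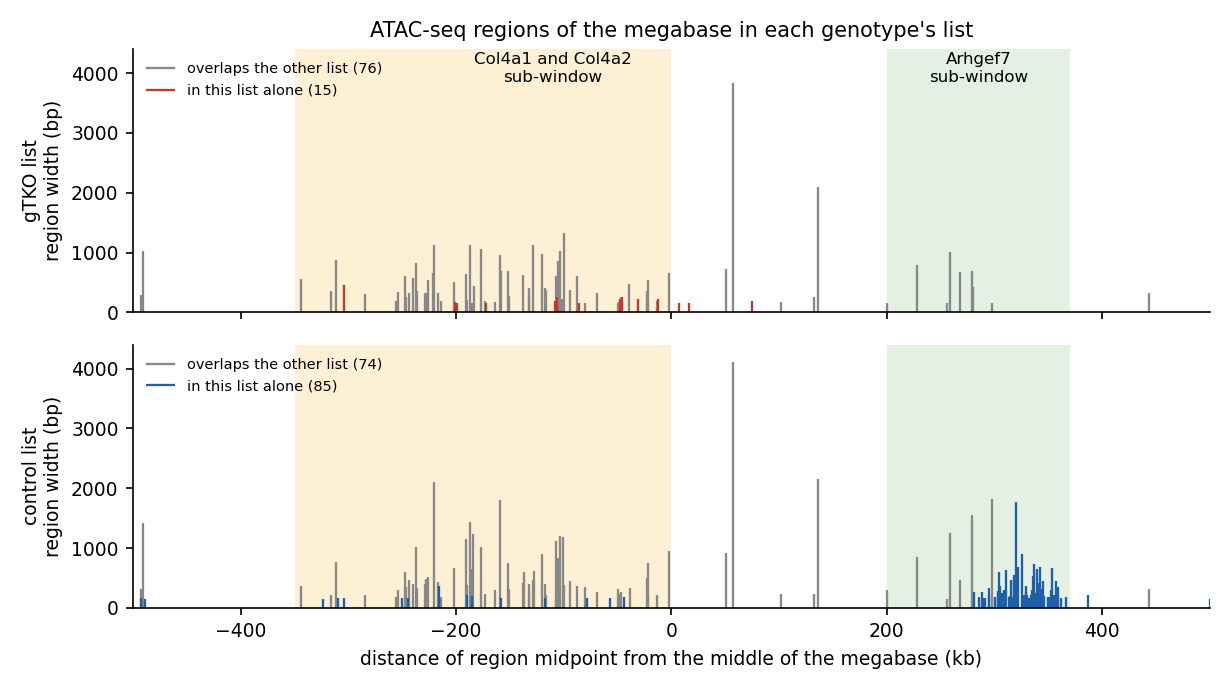
Each line is an ATAC-seq region of the gTKO list (top) or the control list (bottom), placed by its midpoint in kb from the middle of the megabase, with its width in bp as height. Grey lines overlap a region of the other list and coloured lines do not (15 gTKO and 85 control regions), and the coloured control lines gather in the Arhgef7 sub-window.

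Regions with an overlap of 1 bp or more between the lists were taken as shared, and all others as gTKO-only or control-only. Of the gTKO regions, 15 of 91 were gTKO-only, 16.5% (95% interval 9.53 to 25.7%), against 9.75% of all placed gTKO regions. Of the control regions, 85 of 159 were control-only, 53.5% (45.4 to 61.4%), against 27.0% of all placed control regions. These intervals are exact binomial ones, cover counting error only and treat neighbouring regions as independent, which they are not. The 2 sub-windows divided the control-only regions unevenly. At Arhgef7 0 of 8 gTKO regions (exact upper limit 36.9%) and 67 of 74 control regions (90.5%, 81.5 to 96.1%) lacked a partner. At the collagen genes 12 of 72 gTKO regions (16.7%, 8.92 to 27.3%) and 14 of 73 control regions (19.2%, 10.9 to 30.1%) lacked one. In the rest of the megabase the numbers were 3 of 11 and 4 of 12. The Arhgef7 sub-window therefore held 78.8% of the control-only regions on which the megabase was selected, the collagen sub-window 16.5% and the rest 4.71%.

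**Figure D2:**
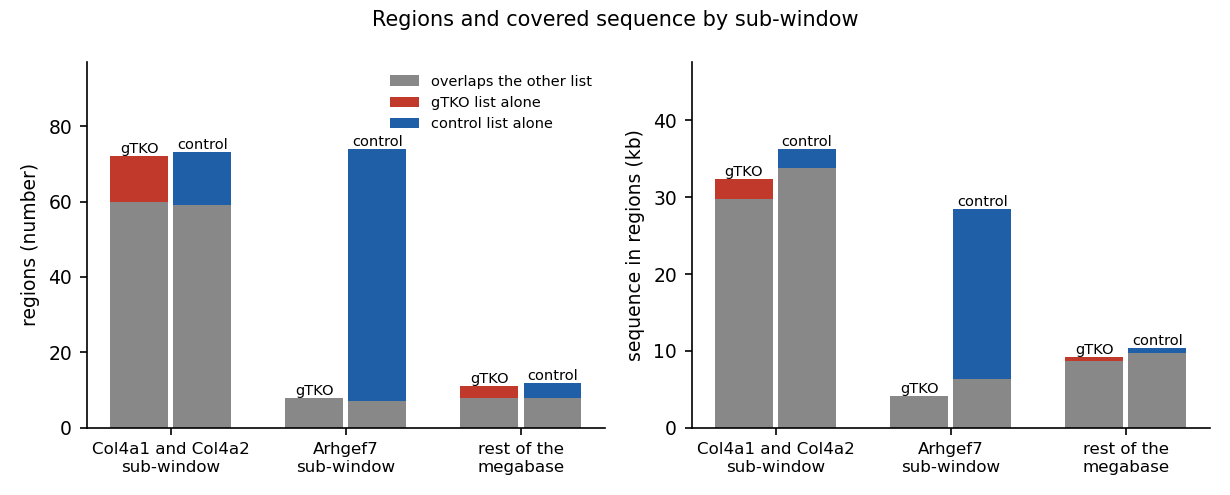
Bars give the number of regions (left) and the sequence they cover in kb (right) in the gTKO and control lists for each sub-window, with the parts that overlap the other list in grey and the regions of that list alone in colour. The 74 control regions of the Arhgef7 sub-window stand beside 8 gTKO regions, while the collagen bars are 72 and 73.

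The Arhgef7 sub-window itself fell into a left part with matched regions and a right part without. Its first 6 control regions, from 11700287 to 11780230, all had partners, and 7 gTKO regions covering 3918 bp stood against their 4566 bp. These included the gTKO region at 11757917-11758925 (1009 bp) against the control region at 11757903-11759153 (1251 bp). The control region at 11778674-11780230 (1557 bp) overlapped gTKO regions of 699 and 422 bp and was the sole control region of the sub-window with more than 1 partner. From 11780230 on, the gTKO list held a single region before the end of the sub-window, at 11797520-11797684 and 165 bp wide. It lay inside the widest control region of the sub-window, at 11797035-11798855 (1821 bp), of which it covered 9.06%.

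To the right of that region, the control list continued with 61 control-only regions in an unbroken run from 11800438 to 11887147. A run is here a series of neighbouring control regions with no partner between them. The gTKO list held no region in these 86.7 kb, and its neighbouring regions at 11797520-11797684 (165 bp) and 11942982-11943305 (324 bp) were 145 kb apart. Such a distance by itself is not rare in the gTKO list, since 6.44% of its 49537 distances between neighbours were as long or longer. All distances were counted, whatever the number of control regions between the neighbours. The share therefore does not say how often such a gap holds as many control regions. The control regions of the run covered 20746 bp, 23.9% of its span, with widths of 151 to 1776 bp and a median of 242 bp. Gaps between them had a median of 303 bp, and 44 of 60 were under 1 kb. The last region of the run, at 11886936-11887147 (212 bp), lay outside the sub-window after a gap of 19967 bp. Without it the run held 60 regions over 66531 bp, ending at 11866968. With 1 list per genotype, it cannot be told whether 1 or all of the 3 control libraries carry the regions of the run, and the same holds for the 67 of 74 control-only regions of the sub-window.

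On the placed chromosomes no other run was as long. The megabase was selected on its number of control-only regions, of which runs are made, so the selection favours a high rank by run length. The control list held 10342 runs, of which 7421 were single regions, 33 held 10 or more and 3 held 20 or more. The next longest held 27 regions over 17.9 kb on chromosome 4 and 20 regions over 14.5 kb on chromosome 7. The longest run of gTKO-only regions held 10. The lists differ in size, and run length was not compared at equal size. Regions next to each other are not independent, and no chance level was computed for run length.

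**Figure D3:**
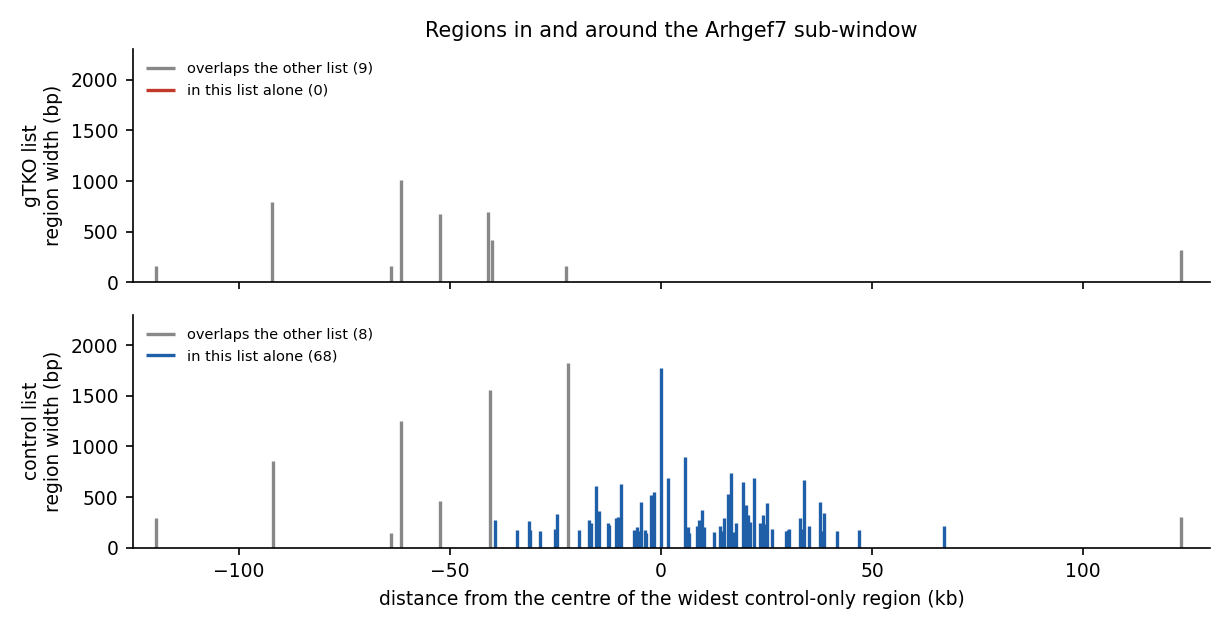
Regions of the gTKO list (top) and the control list (bottom) in and around the Arhgef7 sub-window, placed in kb from the centre of the widest control-only region (1776 bp), with width in bp as height and regions of that list alone in colour. The gTKO list has its last region before the run 165 bp wide at the left and the next one far to the right, while the control list holds 61 neighbouring control-only regions between them.

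**Figure D4:**
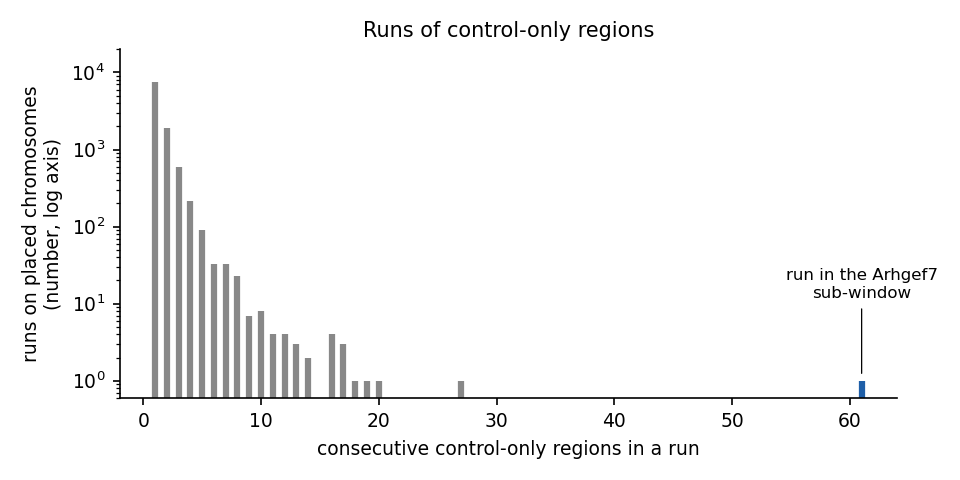
Number of runs (log axis) by the count of neighbouring control-only regions they hold, over all 10342 runs of the placed chromosomes. The run that begins in the Arhgef7 sub-window, in blue, holds 61 regions, and the next longest holds 27.

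Control-only regions at Arhgef7 were not limited to the narrowest class. Among the control regions of 150 to 199 bp, 24 of 25 were control-only at Arhgef7 and 12 of 16 at the collagen genes, against 66.4% of all placed control regions of that width. For 200 to 299 bp the numbers were 20 of 21 and 1 of 12, against 38.5%. For 300 to 499 bp they were 11 of 12 and 1 of 22, against 19.1%. The contrast was widest from 500 to 999 bp, with 11 of 12 at Arhgef7 and 0 of 13 at the collagen genes, against 3.65%. From 1000 bp upwards 1 of 4 and 0 of 10 were control-only, against 0.469%. At the collagen genes the shares in the classes from 200 to 499 bp were thus below those of the whole list. All 12 control-only regions of the megabase with at least 500 bp lay in the Arhgef7 sub-window, among 43 control regions of that width in the megabase. The gTKO list had 0 gTKO-only regions among its 34 of that width. Over all placed chromosomes 515 of 21712 control regions and 16 of 17089 gTKO regions of that width lacked a partner. Having no wide gTKO-only region is thus not particular to this megabase.

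The 5 widest control-only regions of the Arhgef7 sub-window all lay in the run. They were at 11819092-11820867 (1776 bp), 11825195-11826094 (900 bp), 11836223-11836961 (739 bp), 11821298-11821987 (690 bp) and 11841614-11842300 (687 bp). Their distances to the nearest gTKO region were between 21407 and 43929 bp. Over all 67 control-only regions of the sub-window this distance had a median of 31.8 kb, and 53 were more than 10 kb away. Each of these 53 lay in the run, and the nearest gTKO region was the same for all, at 11797520-11797684. Their distances thus restate the gap in the gTKO list, and they were not compared with those of all placed regions. At the collagen genes the median distance was 547.5 bp for the 14 control-only regions and 612 bp for the 12 gTKO-only regions, with no distance above 7281 bp. No unpaired collagen region of either list was thus as much as 10 kb from the other list. Such distances depend on how densely regions lie, and the collagen distances were also not compared with those of all placed regions.

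Bins of 10 kb show the same regions of the right part by position, so they restate the run and are no separate support for it. In each of the 7 bins that follow position 11800000 the gTKO list covered 0 bp. The control list covered 2734, 3943, 3841, 3551, 3508, 2617 and 340 bp in these bins, in order of position. In the whole megabase 42 of 100 bins had covered sequence in the gTKO list and 52 in the control list. Of these, 3 bins were covered in the gTKO list alone and 13 in the control list alone.

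Control regions joined at gaps of up to 3 kb formed 53 stretches in the megabase, and the longest both lay in the Arhgef7 sub-window. The first, from 11825195 to 11846304, held 0 gTKO regions and 28 control regions covering 9110 bp. The other, from 11794921 to 11821987, held 1 gTKO region of 165 bp and 23 control regions covering 10575 bp. Among all 38356 stretches of the control list they ranked 18 and 33 by number of regions, so stretches with as many control regions were found elsewhere too. The longest stretch at the collagen genes, from 11308266 to 11316557, held 6 gTKO regions covering 2741 bp and 7 control regions covering 5243 bp, of which 2 were control-only.

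At the collagen genes the widest regions were present in both lists. The control region at 11277999-11280100 (2102 bp) held gTKO regions of 658 and 1119 bp, and that at 11339775-11341579 (1805 bp) overlapped gTKO regions of 967 and 700 bp. The third widest, at 11312035-11313469, was 1133 bp in the gTKO list and 1435 bp in the control list. Another, at 11395528-11396733, was 1024 bp in the gTKO list and 1206 bp in the control list. Among the 5 widest control regions, the gTKO list covered least of that at 11315325-11316557 (1233 bp), which held gTKO regions of 165 and 442 bp, 49.2% of its length. In all, 5 of 73 control regions met 2 gTKO regions, against 5.28% of all placed control regions with 2 or more. The reverse, a gTKO region that met 2 control regions, occurred for 4 of 72, against 1.07% of all placed gTKO regions. These included the gTKO region at 11392430-11393034 (605 bp), which met the control regions at 11392336-11392488 (153 bp) and 11392531-11393649 (1119 bp).

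The collagen regions without a partner were narrow in both lists. The widest gTKO-only regions were at 11195294-11195752 (459 bp), 11453624-11453882 (259 bp) and 11393767-11394019 (253 bp). The first of these ended 15 bp before a control region. The widest control-only regions were at 11284165-11284536 (372 bp), 11310163-11310369 (207 bp), 11314621-11314817 (197 bp), 11455922-11456110 (189 bp) and 11255031-11255202 (172 bp). The median width at the collagen genes was 200.5 bp among gTKO-only and 165.5 bp among control-only regions. Narrow regions lacked a partner more often over all placed chromosomes too. There 26.2% of gTKO regions of 150 to 199 bp were gTKO-only and 0% of those from 1000 bp upwards. For control-only regions these shares were 66.4% and 0.469%.

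Widths within pairs were closer to even at the collagen genes than over the lists as a whole. Of 47 collagen regions that matched 1 to 1, the gTKO region was narrower in 26 and wider in 21, which gives 55.3% narrower (40.1 to 69.8%), against 79.5% of all 37878 such pairs. The median width in these pairs was 365 bp in the gTKO list and 379 bp in the control list, and the median ratio of gTKO over control width was 0.93 (quartiles 0.76 and 1.11). The same ratio was 0.87 over all pairs, where the median widths were 378 bp and 476 bp. The collagen ratio ranged from 0.24 to 1.73, with 3 pairs under 0.5 and 4 over 1.5. At Arhgef7 there were 6 such pairs, 4 of them narrower in the gTKO list, with ratios from 0.09 to 1.46. In the rest of the megabase 6 of 8 were narrower.

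**Figure D5:**
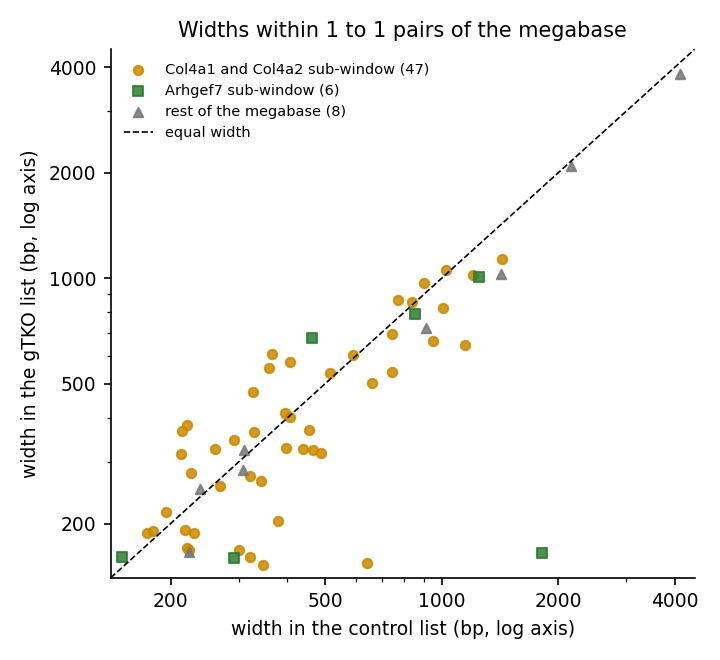
Width in the gTKO list against width in the control list, in bp on log axes, for the regions of the megabase that matched 1 to 1, with the dashed line at equal width. The 47 collagen pairs lie on both sides of the line (26 narrower and 21 wider in the gTKO list), and the Arhgef7 point farthest below it is the pair of 165 and 1821 bp.

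The rest of the megabase held its widest regions, and the first and second of these were nearly equal in the lists. The region between the sub-windows at 11554828-11558940 was 3828 bp in the gTKO list and 4113 bp in the control list. The one at 11634638-11636795 was 2089 bp in the gTKO list and 2158 bp in the control list. Those at 11008461-11009882 and 11550210-11551121 were 1026 and 721 bp in the gTKO list and 1422 and 912 bp in the control list. On the far side of the run, the region at 11942993-11943301 was 324 bp in the gTKO list and 309 bp in the control list. The 3 gTKO-only regions here, at 11575079-11575263, 11506854-11507012 and 11516607-11516756, were 185, 159 and 150 bp wide. The control-only regions were that at the end of the run and those at 11007312-11007483 (172 bp), 11011216-11011365 (150 bp) and 11999807-11999956 (150 bp).

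The adjoining megabases held fewer regions. From 10 to 11 Mb the gTKO list had 6 regions and the control list 4, with 2 gTKO-only and 0 control-only regions. From 12 to 13 Mb the numbers were 23 and 29, with 2 gTKO-only and 8 control-only regions. On the rest of chromosome 8, 9.86% of 3053 gTKO regions and 24.1% of 3356 control regions lacked a partner, close to the shares over all placed chromosomes. Among the 2355 windows of 1 Mb with any region, this megabase ranked 20 by gTKO regions, where the median window held 15. By control regions it ranked 6, where the median was 17. It ranked first by the excess of control over gTKO regions, at 68, and the next window had 65. This excess is closely tied to the count on which the megabase was selected, so a high rank was expected from the selection. The nearest regions to the bounds were as follows. Just inside lay gTKO regions at 11007015-11007299 and 11942982-11943305 and control regions at 11006993-11007300 and 11999807-11999956. Just outside lay gTKO regions at 10978403-10978562 and 12017730-12018041 and control regions at 10953744-10953970 and 12017767-12018039. For the Arhgef7 sub-window the last control region inside was at 11866796-11866968 and the first outside at 11886936-11887147.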

How the data were processed

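Each of the 2 lists deposited by the authors, 1 per genotype, gives the chromosome, start and end of each peak in 3 columns, without any signal, significance or summit. Values are positions in bp, so no count model applies. Per the submitters' processing notes, the build is mm9 and the tools named for the series include Bowtie2, Picard, MACS2 and bedtools. Peak thresholds, filters and pooling were not given in the sources used here. Read depth is not known from the lists, and its part in the number and width of regions was not tested. Regions on chromosomes 1 to 19, X and Y were used, leaving out 620 gTKO and 1044 control regions on other sequences. Starts are printed counted from 1. Overlap classes, 1 to 1 pairs, stretches and runs were computed with Python 3.11.15, numpy 2.4.6, pandas 2.3.3 and scipy 1.17.1, figures with matplotlib 3.10.9, and the overlap step was tested on simulated data. Shares have exact Clopper-Pearson 95% intervals. Named regions are the 5 widest control, 5 widest control-only and 3 widest gTKO-only regions of each sub-window, control regions meeting the most gTKO regions, the longest stretches and those at the bounds. The megabase, lists and rules were chosen with earlier results of these data known, and runs were defined after seeing the lists. The 16 RNA-seq libraries were not used here.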

Additional observations from a re-analysis of the deposited data

How the results depend on the processing

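All 16 alternatives for covered sequence stayed within 1.5 times the values given. Moving the sub-windows cannot change the ratio of the whole megabase, 0.607, and clipping regions at the bounds left every ratio as given. At Arhgef7 the ratio rose from 0.143 to 0.189 with regions of at least 300 bp. In the rest it fell from 0.886 to 0.722 with sub-windows 20 kb narrower, below the 0.771 of all placed chromosomes. All 4 alternatives for widths within pairs stayed inside the exact intervals of the values given. Counts of control-only regions at Arhgef7 stayed within 1.5 times under every overlap rule and shift of bounds. With regions of at least 200 bp, the control-only counts were 43 at Arhgef7, 2 at the collagen genes and 1 in the rest, 46 in all, and the gTKO-only counts 6 at the collagen genes and 0 in the rest, 6 in all. With at least 300 bp, they were 23, 1 and 0, 24 in all, and for gTKO-only 1 at the collagen genes and 0 in the rest, 1 in all. These cuts leave fewer regions by construction. If 50% of both regions had to overlap, the collagen sub-window had 24 control-only and 23 gTKO-only regions, Arhgef7 had 3 gTKO-only regions, and the megabase 29 gTKO-only. Counting partners within 500 bp left 8 control-only and 6 gTKO-only regions at the collagen genes, and 9 gTKO-only in the megabase. Narrowing the sub-windows by 20 kb on each side moved regions into the rest, which then held 15 control-only regions, and widening them left 1 gTKO-only region there. The longest stretch held 10 regions with gaps of up to 1000 bp, 68 with 5000 bp and 69 with 10000 bp. The longest run held 69 and 70 regions under the stricter overlap rules, 61 with partners within 500 bp, 41 with regions of at least 200 bp and 22 with at least 300 bp. It ranked first in each of these, with 36, 47, 27, 19 and 11 in the longest run elsewhere. The selection of the megabase favours this rank under every rule, so the ranks are no separate support for it. The run and the 5000 bp gap were chosen after seeing the data. No paired analysis was possible because the 3 libraries of a genotype share 1 list, which also means that no replicate could be left out. A stricter list by score or q value was not run, since the lists hold neither. Depth is unknown, and its part in these counts was not tested.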
